A study of Mus musculus with 24 samples.

Results

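The hearts of Cmah knockout mice were compared with the hearts of wild type mice, both with an intact dystrophin gene. The comparison rests on 6 of the 24 arrays of the series, chosen by their titles: the cardiac muscle arrays of 3 Cmah KO animals and of 3 wild type (WT) animals. All 6 mice were males of the strain label C57BL/6J aged 2 months. The labels give each animal its own number, so the 3 arrays of a group are separate mice, and 3 per group is what bounds how precise a value can be. RNA was measured on an Affymetrix mouse array after amplification of 25 ng of total RNA per heart with a NuGEN Ovation kit. A further 6 heart arrays, from 3 mdx and 3 Cmah KO mdx males of the strain label C57BL6/10J and the same age, entered the fit to share its estimate of the spread. The mdx mice lack dystrophin, and Cmah KO mdx mice lack both dystrophin and Cmah. The labels do not say how the Cmah allele was made or from which strain it came. All values are log2 intensities, and a difference is Cmah KO minus WT on that scale, where 1 is a change by a factor of 2.

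Cmah encodes the hydroxylase that turns the activated form of the sialic acid N-acetylneuraminic acid (Neu5Ac) into that of N-glycolylneuraminic acid (Neu5Gc). Sialic acids cap the sugar chains of cell surface glycoproteins and glycolipids, and are read by lectins such as the Siglecs. Mice carry both acids, humans lost the enzyme, and Cmah knockout mice lack Neu5Gc. The comparison asks what this loss alone does to the heart transcriptome, without the dystrophic muscle that the rest of the series adds.

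The arrays looked like heart. Of 10 cardiomyocyte markers, 8 (among them Myh6, Tnni3, Nppa and Ryr2) lay higher on each of these 6 heart arrays than on any gastrocnemius array of the same 6 animals, while Myl2 and Myl3 overlapped. The gastrocnemius arrays were not alike in these cardiomyocyte markers. Their median there was 5.49, 5.04 and 10.29 on the WT arrays and 10.97, 5.57 and 5.47 on the Cmah KO arrays. The part of this in the gastrocnemius differences below was not tested. All 15 skeletal muscle markers lay lower on each heart array than on any gastrocnemius array. The Cmah KO array labelled replicate 3 stood apart from the rest. Its Pearson correlation with the other 11 heart arrays over all probe sets lay between 0.529 and 0.571, against 0.938 to 0.993 among the 10 heart arrays left when it and replicate 2 of the Cmah KO mdx group are set aside. Its 3' minus 5' difference of the Gapdh control probe sets, a sign of RNA integrity, was 4.29, against 0.44 to 1.60 on those 10 arrays and 4.43 on the Cmah KO mdx array. Its upper quartile was 6.74, against 7.82 to 8.02. Against the WT mean its genes read 0.882 above it (median) in the dimmest of 4 equal bins of genes and at -1.08, -2.33 and -2.64 in the next 3 bins, as the plot by WT level shows. Replicates 1 and 2 stayed within 0.155 of the WT mean in every bin. With replicate 3 the median difference of all genes was -0.43, and without it 0.02, so the results are given both ways. Where a single difference is printed, it includes replicate 3. Differences of Cmah KO mdx against mdx below include replicate 2 of the Cmah KO mdx group. The 10 remaining arrays also fell into 2 classes by the 3' Actb control, low (10.06 to 10.35; among them WT replicate 2 and Cmah KO replicate 1) and high (11.85 to 12.33; among them WT replicates 1 and 3 and Cmah KO replicate 2). The labels do not say what these classes are, and differences within each class are given beside the main results.

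**Figure D1:**
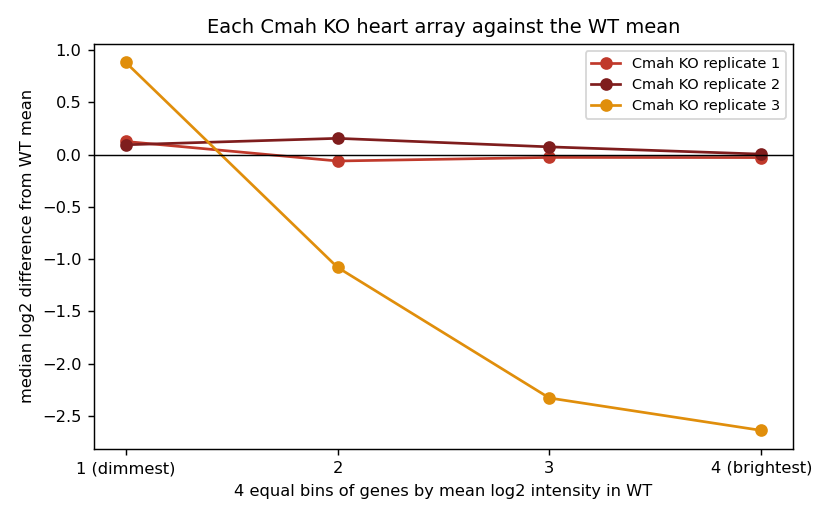
Median log2 difference of each Cmah KO heart array from the WT mean (vertical axis), over the 13101 genes tested split into 4 equal bins by their WT mean (horizontal axis). Replicate 3 runs from 0.882 in the dimmest bin to -2.64 in the brightest, while replicates 1 and 2 stay within 0.155 of 0.

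No probe set passed the test. Of 29421 probe sets tested with limma, 0 (0%) had a Benjamini-Hochberg adjusted p below 0.05, and the lowest adjusted p was 0.686. At an unadjusted p below 0.05 there were 250 (0.85%), of which 132 (0.449%) were higher and 118 (0.401%) lower in Cmah KO. The groups did not overlap for 556 probe sets that were higher (1.89%) and 1065 that were lower (3.62%). Without replicate 3, limma again called 0 of 29179 probe sets (lowest adjusted p 0.691), 139 (0.476%) were at an unadjusted p below 0.05 (97 or 0.332% higher, 42 or 0.144% lower), and 1349 (4.62%) and 1408 (4.83%) did not overlap in the higher and the lower direction. Counted by gene, with the brightest probe set standing for each of 13101 genes, 76 genes (0.58%) were higher and 44 (0.336%) lower at an unadjusted p below 0.05. Leaving out each array in turn moved the total of 250 to between 129 and 4747, with 4747 without Cmah KO replicate 2, 3501 without replicate 1 and 139 without replicate 3. It was 129, 188 and 146 without WT replicates 1, 2 and 3. Of all genes, 29.1% were higher and 70.9% lower with replicate 3, and 52.8% and 47.2% without it. The genes below are therefore described by their values, and none is called changed.

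The targeted gene itself did not separate the groups. The brightest Cmah probe set read 6.09, 8.40 and 5.48 in the WT hearts and 7.72, 6.44 and 5.33 in the Cmah KO hearts. The groups overlapped throughout, and the difference was -0.16 ± 0.82 (SE), or 0.42 ± 0.85 without replicate 3. The sources used here do not place its probes inside or outside the deleted stretch, so this probe set checks no label. In the gastrocnemius of the same animals it lay lower on every Cmah KO array than on any WT array, with a mean difference of -1.03. Dmd, which encodes dystrophin and is intact in both groups, read 9.89, 9.91 and 10.07 in WT and 9.66, 10.09 and 8.01 in Cmah KO. The low value was that of replicate 3, and the difference moved from -0.70 ± 0.52 to -0.08 ± 0.33 without it. Nnt, a mitochondrial transhydrogenase that some C57BL/6J stocks lack, read 12.64 ± 0.09 in WT and 12.92 ± 0.22 in Cmah KO (SD, n = 3 each), so both groups carried its signal.

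The other genes of sialic acid biology mostly overlapped between the groups. Of 14 tested genes that make, activate, carry or remove sialic acid, 3 were higher and 11 lower, none at an unadjusted p below 0.05 and none without overlap. Their median was -0.27 with replicate 3 and -0.05 without it, against -0.43 and 0.02 over all genes. Gne, the enzyme that starts sialic acid synthesis, differed by 0.41 ± 0.55 (0.30 without replicate 3), and Cmas, which activates Neu5Ac to the substrate of Cmah, by 0.12 ± 0.42 (0.084 without it; both chosen after their values were seen). Slc35a1, the Golgi carrier of activated sialic acid, differed by -1.34 ± 0.78, and by -0.24 ± 0.46 without replicate 3. Of 16 sialyltransferases, 5 were higher and 11 lower with replicate 3 (median -0.41), and 11 were higher and 5 lower without it (median 0.04). Of 6 Siglecs and other sialic acid receptors, 5 were higher with replicate 3 (29.1% of all genes; median 0.59), 2 of them without overlap (2.34% of all genes). Cd22, the inhibitory Siglec of B cells, was the 1 higher at an unadjusted p below 0.05 (0.58% of all genes). It passed the filter on dim probe sets only with Cmah KO or Cmah KO mdx arrays counted, which favoured this direction. Without replicate 3, 4 were higher (52.8% of all genes) and 2 lower (median 0.39), none at an unadjusted p below 0.05. Of the higher ones, 2 did not overlap (6.1% of all genes).

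Of the 12 higher probe sets with a gene name, no overlap and the smallest p, 6 came from genes of B cells and their antibodies, none past the adjusted threshold. B cells make immunoglobulin from the heavy chain loci (Ighm, Ighg3, Igha) and the light chain loci (Igk, Iglv1), signal through Cd79a and Cd79b, and carry Ms4a1 (CD20) and Cd22 on their surface. EBF1 is a factor of early B cells that binds DNA at sites whose core is CCCNNGGG, a motif that reads the same on both strands. Of 13 B cell genes (the 11 tested genes of the B cell list, Igll1 and Tnfrsf13c), 7 had a promoter in the RefSeq table for GRCm38.p6, and those of 2, Igll1 and Cd22, held the core, as did 13.7% of all 32851 promoters of the same length in the table. They are shown because both genes lay higher in every Cmah KO heart, and they run from 250 bases before to 50 bases after the gene start, on the gene's strand, with the core in capitals. The Igll1 promoter is at chr16:16863936-16864235 (minus strand) and that of Cd22 at chr7:30878979-30879278 (minus strand). A match to these letters is a description and not a measured binding site.
Igll1 promoter: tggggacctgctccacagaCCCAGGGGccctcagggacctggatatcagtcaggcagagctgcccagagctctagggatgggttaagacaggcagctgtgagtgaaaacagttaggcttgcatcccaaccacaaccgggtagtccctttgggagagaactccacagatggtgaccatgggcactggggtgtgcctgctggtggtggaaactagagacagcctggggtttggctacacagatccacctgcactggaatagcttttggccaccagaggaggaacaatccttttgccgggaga
Cd22 promoter: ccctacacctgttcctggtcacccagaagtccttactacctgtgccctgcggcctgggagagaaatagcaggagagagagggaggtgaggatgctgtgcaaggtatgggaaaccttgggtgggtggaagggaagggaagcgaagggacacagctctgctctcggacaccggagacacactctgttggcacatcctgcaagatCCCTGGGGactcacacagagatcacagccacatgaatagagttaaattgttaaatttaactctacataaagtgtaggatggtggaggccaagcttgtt

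Igll1, the surrogate light chain gene of early B cells, had the smallest p among the higher probe sets with a gene name. It read 3.52, 5.49 and 3.90 in WT and 6.50, 6.63 and 9.46 in Cmah KO. All 3 Cmah KO arrays lay above all WT arrays, and replicate 3 was the highest. The difference was 3.23 ± 0.79 (SE; limma adjusted p = 0.686), 2.26 ± 0.59 without replicate 3, and 1.01 and 2.92 within the low and the high Actb class. Ighm, the heavy chain of IgM, read 6.12, 7.15 and 6.68 in WT and 10.38, 11.66 and 8.08 in Cmah KO. Here replicates 1 and 2 were the high ones, and the lowest Cmah KO array still lay above the highest WT array. The difference was 3.39 ± 1.13, 4.37 ± 1.14 without replicate 3, and 3.23 and 5.27 within the classes. The 5 other Ighm probe sets gave 0.31 to 2.47, all in the same direction.

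Ms4a1 read 4.50, 4.05 and 4.13 in WT and 6.51, 7.76 and 6.16 in Cmah KO at its brightest probe set. Its groups were clear of each other, as they were at its other probe set (differences 2.58 ± 0.99 and 2.63 ± 0.86, or 2.90 and 2.80 without replicate 3). Cd22 read 4.22, 4.69 and 4.67 in WT and 5.19, 5.92 and 7.06 in Cmah KO, a difference of 1.53 ± 0.55, or 1.03 ± 0.47 without replicate 3. Tnfrsf13c, the receptor for the B cell survival factor BAFF, read 4.64, 5.92 and 4.75 in WT and 6.31, 7.29 and 8.36 in Cmah KO. That was a difference of 2.22 ± 0.65, or 1.70 ± 0.61 without replicate 3, with 0.39 in the low class and 2.59 in the high class. Ighg3, an IgG heavy chain, read 3.43, 3.27 and 3.37 in WT and 4.52, 7.10 and 6.84 in Cmah KO. All 3 WT values lay below the 40th percentile of heart values (4.78), and the difference was 2.79 ± 0.77. Only 2 Cmah KO arrays and 1 Cmah KO mdx array lay above that cut, so Ighg3 passed the filter on dim probe sets solely through the groups where it is high, and it did not pass without replicate 3. The light chain gene Iglv1 lay higher at both of its named probe sets, by 3.25 ± 0.98 and 2.29 ± 0.65 (3.71 and 2.44 without replicate 3). The latter lay above the cut on 0 WT and 0 mdx arrays and likewise passed through the groups where it is high.

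Of the 15 entries of the B cell list, 13 matched a current symbol, 11 were on the array and 11 passed the filter on dim probe sets. Blk passed solely through 2 Cmah KO arrays and 1 Cmah KO mdx array, so it had to differ, and it is among the 6 and the 7 counted next. Cd22 and the brighter named probe sets of Ms4a1 and Iglv1 lay above the cut on 0 WT arrays and 1 mdx array. Cd79a lay above it on 0 WT and 2 mdx arrays. These 4 passed only with Cmah KO or Cmah KO mdx arrays counted, which favoured the higher direction in the counts below. With replicate 3, 10 were higher and 1 lower, 6 were higher at an unadjusted p below 0.05 (0.58% of all genes), and 7 were higher without overlap (2.34% of all genes). The median difference was 2.16. Without replicate 3, 10 passed the filter and all 10 were higher, 6 at an unadjusted p below 0.05 (0.464% of all genes; 0.596% in both directions) and 9 without overlap (6.1% of all genes), and the median was 2.58, with 1.09 in the low class and 3.44 in the high class. The other members with a difference above 0 were Cd79b (2.16 ± 0.82), Blk (1.68 ± 0.60), Jchain (3.13 ± 1.55), Igk (2.46 ± 1.69), Pou2af1 (1.45 ± 0.94) and Cd79a (0.96 ± 0.67). Without replicate 3, Cd79b stood at 1.57, Jchain at 4.62, Igk at 4.10, Pou2af1 at 2.25 and Cd79a at 1.12, and Blk did not pass the filter. Cd79b and Cd79a carry the signal of the B cell receptor, Blk is a kinase of it, Jchain joins IgM and IgA chains, and Pou2af1 is a coactivator of B cells. Jchain read 5.58, 7.93 and 4.93 in WT and 10.28, 11.26 and 6.28 in Cmah KO, so replicate 3 fell among the WT values while the other 2 lay far above them. The member below 0 was Ebf1 (-0.59 ± 0.67, and 0.13 ± 0.55 without replicate 3), which heart cells other than B cells also transcribe and which read 8.08 to 10.93 on all 6 arrays. Cd79b, Blk, Igk, Pou2af1, Cd79a, Ebf1 and the brightest Ms4a1 probe set were chosen after their values were seen. So was a count over every probe set of an immunoglobulin locus. Of 26 tested, 25 were higher, 13 of them without overlap (1.89% of all probe sets), with a median of 2.41. Ighg3 and the dimmer named Iglv1 probe set lay above the filter's cut on 0 WT and 0 mdx arrays. Such probe sets passed through the groups where they are high, which favoured this direction. Without replicate 3 the same 26 were all higher, 17 without overlap (4.62% of all probe sets that passed the filter then). Not all of the 26 passed that filter themselves, Ighg3 among those that did not. In the gastrocnemius 2 of 26 were higher (median -0.64).

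Of 10 T and NK cell markers tested, 6 were higher and 4 lower (median 0.45, and 0.19 without replicate 3), none at an unadjusted p below 0.05. Of these, 3 were higher without overlap (2.34% of all genes), and 4 without replicate 3 (6.1% of all genes). In Cmah KO mdx against mdx, 9 of 10 were higher (43.1% of all genes). Cxcl13, the chemokine that draws B cells into lymphoid follicles, read 5.17, 7.11 and 6.26 in WT and 8.12, 8.21 and 8.42 in Cmah KO. The 3 Cmah KO arrays lay above all WT arrays, and the difference was 2.07 ± 0.68 at this probe set, or 1.99 without replicate 3. Its brighter probe set read 9.64, 9.74 and 7.00 in Cmah KO, with replicate 3 inside the WT range of 5.99 to 7.29 (2.21 ± 1.07, or 3.11 without replicate 3). In bulk tissue, fewer or more cells of a type and less or more RNA per cell cannot be told apart.

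The level of the B cell genes was also read on the other 6 heart arrays and on the gastrocnemius arrays of the same 6 animals. The median of the 11 genes was 4.94, 4.69 and 4.67 on the WT heart arrays and 6.30, 8.06 and 6.39 on the Cmah KO heart arrays. On the mdx heart arrays it was 5.92, 4.84 and 5.05, and on the Cmah KO mdx heart arrays 4.94, 6.52 and 8.37. There, replicate 1 of the Cmah KO mdx group read like the mdx arrays and replicate 3 was the highest of all hearts. In the gastrocnemius the WT arrays read 9.81, 4.80 and 4.36 and the Cmah KO arrays 4.63, 4.50 and 7.34. The highest of all 18 arrays in the plot was thus a WT array, and the mean differences of the 11 genes in gastrocnemius had a median of -0.77. In Cmah KO mdx against mdx, a comparison that shares no array with the present one, 11 of the 11 genes were higher (43.1% of all genes) with a median of 1.22. Blk is among them, and its passing the filter solely through Cmah KO and Cmah KO mdx arrays favoured that sign. Cd22, Ms4a1, Iglv1 and Cd79a passed only with arrays of these groups counted, which favoured it too. The T and NK cell median was also highest on gastrocnemius WT replicate 1 (8.46) and Cmah KO replicate 3 (6.30). The part of lymphocyte content in the difference between the hearts was not tested.

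**Figure D2:**
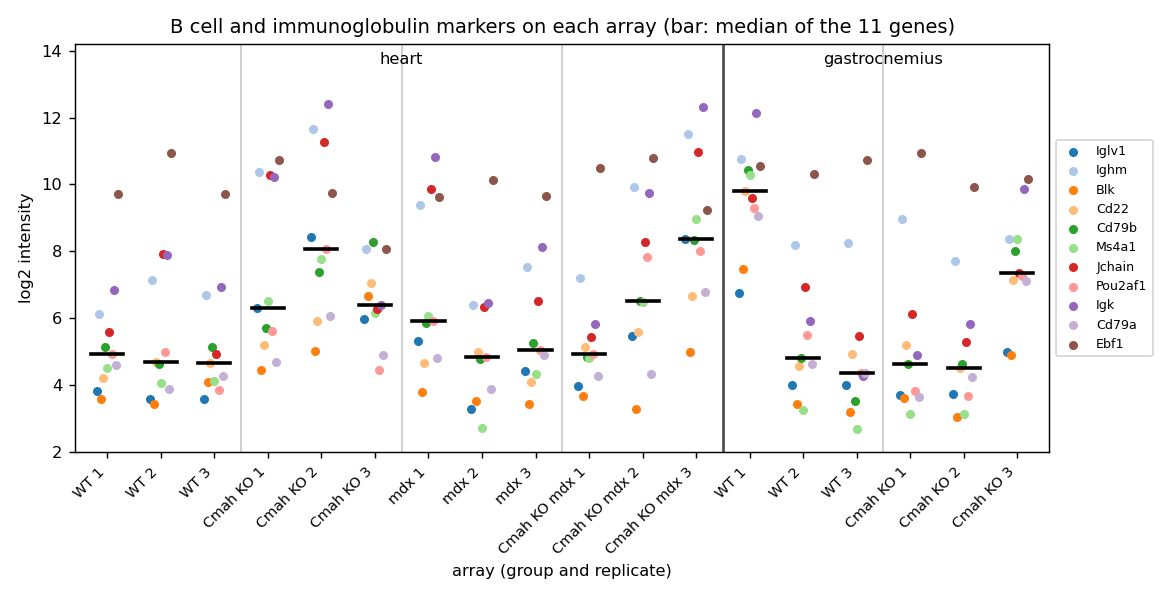
Log2 intensity (vertical axis) of the 11 B cell and immunoglobulin genes tested, on each heart array and on the gastrocnemius arrays of the WT and Cmah KO animals (horizontal axis); coloured points are genes and black bars the median of the 11. The medians of the 3 Cmah KO hearts (6.30 to 8.06) lie above those of the 3 WT hearts (4.67 to 4.94), and the highest median of all is that of gastrocnemius WT replicate 1 (9.81).

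The remaining probe sets among the 12 with the smallest p in the higher direction were not B cell genes. Slc27a2, a fatty acid transporter and acyl-CoA synthetase best known from liver and kidney, read 3.18, 3.38 and 2.79 in WT and 4.69, 5.50 and 5.96 in Cmah KO. Every Cmah KO array was above every WT array, by 2.26 ± 0.65 on average and 1.97 without replicate 3, with all WT values below the 40th percentile. Cldn10, a tight junction claudin, differed by 1.69 ± 0.47, Snap25, a vesicle fusion protein of neurons, by 2.18 ± 0.63, and Dusp26, a phosphatase, by 1.24 ± 0.40, or 1.26, 1.87 and 1.06 without replicate 3. These 3 also had WT means below the 40th percentile. Slc27a2, Snap25 and Dusp26 lay above that cut on 0 WT arrays and 1 mdx array, so they passed the filter only with the Cmah KO arrays counted. H3c11, a replication-dependent histone H3 gene on chromosome 13, read 2.91, 4.56 and 3.62 in WT and 5.12, 6.32 and 5.70 in Cmah KO (2.02 ± 0.50, or 2.03 without replicate 3). In the gastrocnemius of the same animals it was also higher without overlap (1.88, beside 1.78% of all probe sets without overlap in that direction), whereas in Cmah KO mdx against mdx hearts the difference was 0.06 ± 0.50.

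At its brightest probe set, Ucp3, the uncoupling protein of muscle mitochondria that is raised by fatty acids, read 6.84, 6.79 and 6.70 in WT and 8.31, 7.89 and 8.00 in Cmah KO. The spread within each group was small beside the gap, the difference was 1.29 ± 0.46 (limma adjusted p = 0.686), and it was 1.32 ± 0.46 without replicate 3 and 1.52 and 1.12 within the low and the high class. The other Ucp3 probe set overlapped between the groups, at 6.21, 5.35 and 6.21 in WT and 5.20, 6.80 and 6.56 in Cmah KO (0.26 ± 0.64, or 0.077 without replicate 3). Fasn, fatty acid synthase, chosen after its values were seen, read 6.48, 6.59 and 6.99 in WT and 8.10, 8.41 and 8.39 in Cmah KO (1.62 ± 0.54, or 1.57 without replicate 3). In Cmah KO mdx against mdx, which shares no array, Ucp3 differed by 0.41 ± 0.46 and Fasn by -0.49 ± 0.54. Of 26 fatty acid oxidation genes tested, Ucp3 among them, 2 were higher with replicate 3 (Ucp3 and Hadh; median -0.50) and 13 without it (median -0.0002).

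**Figure D3:**
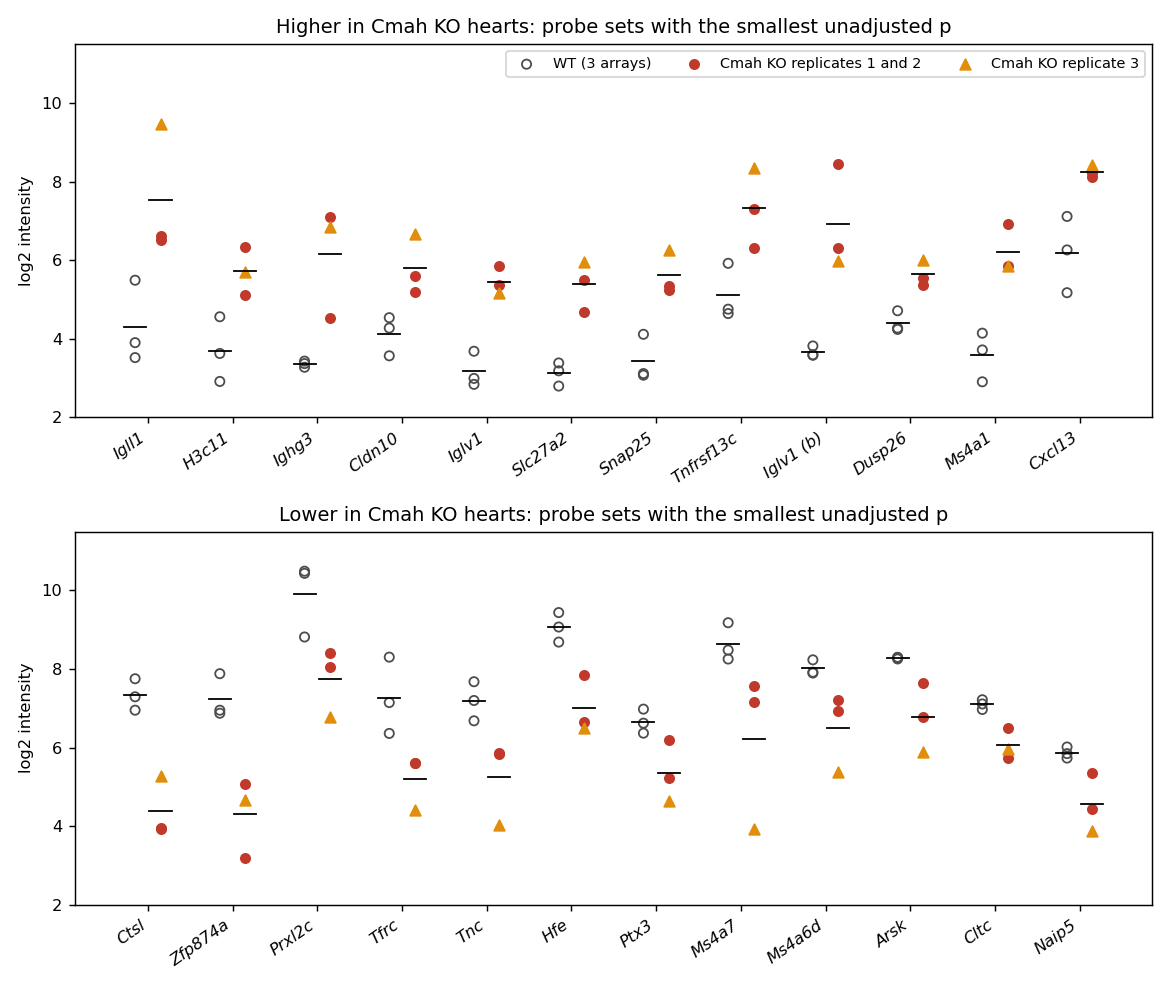
Log2 intensity (vertical axis) of the 12 higher and the 12 lower probe sets with the smallest unadjusted p whose groups do not overlap (horizontal axis, by gene; Iglv1 has 2 probe sets). Open circles are WT arrays, filled circles Cmah KO replicates 1 and 2, triangles Cmah KO replicate 3, and short lines group means; for Ctsl the WT arrays lie between 6.95 and 7.75 and the Cmah KO arrays between 3.93 and 5.29.

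Of the 12 lower probe sets with a gene name, no overlap and the smallest p, 6 came from genes of chromosome 13, where Cmah itself lies, among them the first 3. A probe set of Ctsl, the gene of cathepsin L, a protease of lysosomes, had the smallest p of the comparison. It read 7.29, 6.95 and 7.75 in WT and 3.93, 3.95 and 5.29 in Cmah KO. The groups were far apart, and replicate 3 was the nearest to WT of the Cmah KO arrays. The difference was -2.94 ± 0.54 (SE; limma adjusted p = 0.686), -3.39 ± 0.47 without replicate 3, and -3.02 and -3.57 within the low and the high class. The brighter Ctsl probe set read 11.46, 10.96 and 12.07 in WT and 10.32, 11.47 and 10.59 in Cmah KO (-0.70 ± 0.55), so the 2 probe sets of this gene disagreed in size.

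Zfp874a, a zinc finger gene of the KRAB type, read 6.88, 6.95 and 7.88 in WT and 5.06, 3.19 and 4.66 in Cmah KO. Its groups were also far apart (-2.93 ± 0.62, and -3.11 ± 0.66 without replicate 3). Prxl2c, a peroxiredoxin-like gene next to Ctsl in gene order, read 10.49, 8.82 and 10.44 in WT and 8.06, 8.42 and 6.77 in Cmah KO. The lowest WT array and the highest Cmah KO array were close, the difference was -2.16 ± 0.56, or -1.67 ± 0.48 without replicate 3, and the other probe set of the gene gave -0.30 and -0.055. Arsk, a sulfatase, read 8.29, 8.26 and 8.30 in WT and 6.79, 7.64 and 5.90 in Cmah KO (-1.51 ± 0.56, or -1.07 ± 0.52 without replicate 3). Its other probe set gave -0.30 with replicate 3 and, in the opposite direction, 0.43 without it. Naip5, an innate immune sensor of flagellin, differed by -1.31 ± 0.49, or -0.97 ± 0.44 without replicate 3. Hfe, the iron-regulating gene of haemochromatosis, lies 19 genes from Cmah. It read 9.07, 9.44 and 8.69 in WT and 7.86, 6.65 and 6.50 in Cmah KO at the probe set that ranks it here (-2.06 ± 0.73, or -1.81 without replicate 3), and by its brighter probe set it differed by -2.20 ± 0.92, or -0.73 ± 0.30 without replicate 3.

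The same probe sets also differed in the lower direction in Cmah KO mdx against mdx hearts and in Cmah KO against WT gastrocnemius, though not all without overlap. In Cmah KO mdx against mdx hearts, which share no array with the present comparison, Ctsl read 7.44, 8.30 and 8.12 in mdx and 4.89, 5.89 and 4.32 in Cmah KO mdx. The difference was -2.92 ± 0.54, and for Zfp874a, Prxl2c, Arsk and Naip5 it was -2.95, -2.35, -2.40 and -2.02, each without overlap (5.61% of all probe sets in that direction). These differences include Cmah KO mdx replicate 2, whose Gapdh difference was 4.43. For these 5 probe sets replicates 1 and 3 of that group also lay below every mdx array. Hfe overlapped there (-1.21). In the gastrocnemius of the same 6 animals Ctsl differed by -3.49, Zfp874a by -2.80, Prxl2c by -1.47, Arsk by -1.49 and Hfe by -2.01, each without overlap (1.45% of all probe sets in that direction). Naip5 (-0.73) overlapped there. With limma, Cmah KO mdx against mdx called 0 of 29421 probe sets (464 or 1.58% at an unadjusted p below 0.05) and the gastrocnemius 0 of 29518 (332 or 1.12%). The test of the difference between the tissues called 0 (794 or 2.7% at an unadjusted p below 0.05), as did that between both heart comparisons (143 or 0.486%). Rsl1, another zinc finger gene of chromosome 13, separated the groups only when replicate 3 was left out: it read 7.12, 8.39 and 7.54 in WT, 6.79 and 4.90 in Cmah KO replicates 1 and 2, and 9.15 in replicate 3. Without replicate 3 its difference was -1.84 ± 0.64. A probe set of Zkscan8, also on chromosome 13, read 6.30, 6.52 and 6.80 in WT and 8.01 and 7.62 in Cmah KO replicates 1 and 2 against 4.97 in replicate 3. The brighter Zkscan8 probe set differed by -1.46, or -0.19 without replicate 3.

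By chromosome, 13 held the largest share of genes at an unadjusted p below 0.05: 16 of 484 (3.31%), against 0.916% over all 13101 genes, and 13 of 478 (2.72%) against 0.596% without replicate 3. The 16 were 6 higher and 10 lower genes, and the 13 without replicate 3 were 7 higher and 6 lower. The next chromosome, 6, held 1.60%. Of 61 tested genes within 100 genes to either side of Cmah, 1 was higher and 1 lower at an unadjusted p below 0.05. Their median without replicate 3 was 0.03. Prxl2c, Ctsl, Rsl1, Zfp874a, Arsk and Naip5 lie 313, 314, 347, 356, 421 and 525 genes from Cmah on 1 side of it, and H3c11 lies 97 genes away on the other. Gene order was taken from RefSeq genes of GRCm38.p6. Probe set coordinates are not given, since the build behind the array's annotation is not stated in the sources used here.

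**Figure D4:**
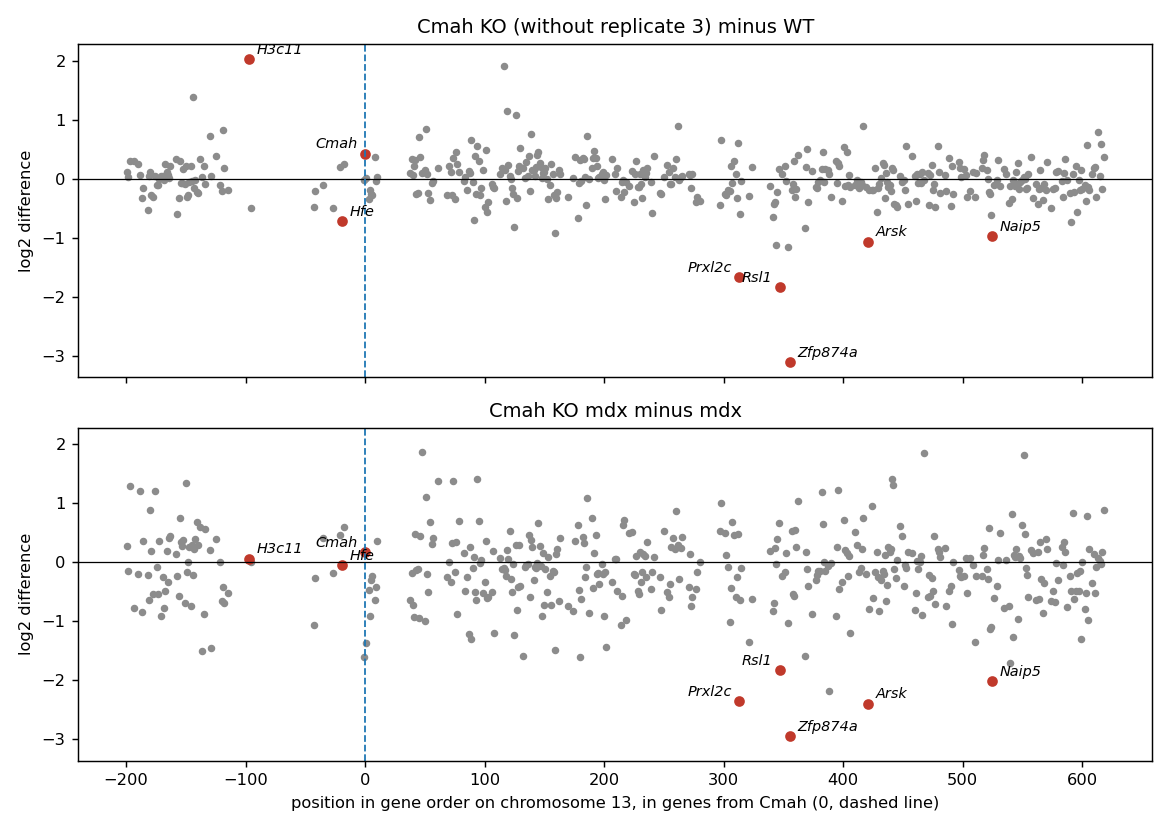
Log2 difference (vertical axis) of each tested gene of chromosome 13 against its place in gene order, counted from Cmah (horizontal axis; dashed line, 0); the upper panel is Cmah KO without replicate 3 minus WT, the lower panel Cmah KO mdx minus mdx, and named genes are red. Prxl2c, Rsl1, Zfp874a, Arsk and Naip5 lie below 0 in both panels, between 313 and 525 genes from Cmah.

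The other 6 of the 12 lower probe sets were those of Tfrc, Tnc, Ptx3, Cltc, Ms4a7 and Ms4a6d. Tfrc, the transferrin receptor, read 7.15, 8.30 and 6.36 in WT and 5.62, 5.62 and 4.40 in Cmah KO at 1 probe set (-2.06 ± 0.56, or -1.65 without replicate 3). Its brighter probe set read 12.19, 12.53 and 11.89 in WT and 11.99, 11.55 and 8.54 in Cmah KO, with replicate 1 inside the WT range. Tnc, tenascin C, a matrix glycoprotein of remodelling tissue, read 6.68, 7.68 and 7.20 in WT and 5.87, 5.83 and 4.03 in Cmah KO. The groups did not overlap, and the difference was -1.95 ± 0.54, or -1.34 ± 0.39 without replicate 3, with -1.81 and -1.11 in the low and the high class. Ptx3, a pentraxin of acute inflammation, differed by -1.31 ± 0.47, or -0.96 without replicate 3. Cltc, the clathrin heavy chain, differed by -1.03 ± 0.39 at 1 probe set, or -0.97 without replicate 3, and by -0.43 and -0.10 at its brighter one.

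Matrix genes lay low as a group. Of 29 tested collagens and interstitial matrix genes, 24 were lower, 5 of them at an unadjusted p below 0.05 (0.336% of all genes) and 9 without overlap (3.11% of all genes). The median was -0.95 with replicate 3 and -0.31 without it, against -0.43 and 0.02 over all genes, and -0.20 and -0.34 in the low and the high class. Without replicate 3, 23 of 29 were lower, 2 at an unadjusted p below 0.05 (0.131% of all genes) and 9 without overlap (3.93% of all genes). Postn, periostin, a marker of activated fibroblasts, read 10.36, 11.52 and 11.23 in WT and 9.93, 9.72 and 10.10 in Cmah KO. All 3 Cmah KO arrays were below the WT arrays, replicate 3 was not the lowest, and the difference was -1.12 ± 0.49 with it and -1.21 ± 0.49 without. Col3a1, the main fibrillar collagen beside type I and chosen after its values were seen, read 11.85, 11.79 and 12.50 in WT and 10.98, 11.59 and 9.42 in Cmah KO. Replicate 3 was far the lowest, and the difference went from -1.38 ± 0.59 to -0.76 ± 0.47 without it. Col5a2 differed by -1.65 ± 0.70 and -0.64 ± 0.37, and Lum, the proteoglycan lumican, by -2.97 ± 1.34 and -1.02 ± 0.85, with and without replicate 3. In Cmah KO mdx against mdx the differences of Tnc, Postn and Col3a1 were -0.22, -0.08 and -0.002. Across the 29 genes, 9 were higher (43.1% of all genes) and 20 lower there, with a median of -0.24 against -0.10 over all genes. In the gastrocnemius of the WT and Cmah KO animals 8 of the 29 were higher, beside 7301 of 13101 genes. The median was -0.23 there, against 0.03 over all genes.

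Of 18 macrophage markers tested, all 18 were lower with replicate 3 (70.9% of all genes), 3 at an unadjusted p below 0.05 (0.336% of all genes) and 5 without overlap (3.11% of all genes), with a median of -1.15. Without replicate 3, 16 were lower (47.2% of all genes), none at an unadjusted p below 0.05 and 6 without overlap (3.93% of all genes), and the median was -0.47, with -0.55 and -0.59 in the low and the high class. Fcgr3, an Fc receptor for IgG, read 9.11, 9.71 and 9.57 in WT and 8.68, 8.75 and 7.04 in Cmah KO (-1.31 ± 0.51, or -0.75 without replicate 3). Its groups did not overlap, and Cmah KO replicates 1 and 2 were close to each other. Cd14, the lipopolysaccharide co-receptor, read 7.40, 7.44 and 7.99 in WT and 6.94, 6.92 and 5.45 in Cmah KO (-1.17 ± 0.51, or -0.68 without replicate 3). Lyz2, lysozyme, differed by -1.76 ± 0.79 and Adgre1, a surface receptor of macrophages, by -1.50 ± 0.70, and by -0.79 and -0.65 without replicate 3 (both chosen after their values were seen). Ms4a7 and Ms4a6d, membrane proteins of macrophages, were among the 12 lower probe sets with the smallest p, at -2.42 ± 0.89 and -1.51 ± 0.56, or -1.27 and -0.94 without replicate 3. The lysosomal proteases Ctsc (-1.40 ± 0.58) and Ctss (-1.08 ± 0.45), both abundant in myeloid cells, lay lower too, at -0.66 and -0.78 without replicate 3. The macrophage median per array was 7.92, 8.41 and 9.19 in WT and 8.17, 7.76 and 6.32 in Cmah KO, so as a whole the marker level of Cmah KO replicate 1 lay inside the WT range.

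Of 18 interferon response genes tested, 15 were lower with replicate 3 (70.9% of all genes; median -0.80) and 15 without it (47.2% of all genes; median -0.34). None was at an unadjusted p below 0.05, and 3 (3.11% of all genes) and 4 (3.93%) were lower without overlap. In Cmah KO mdx against mdx, 12 were higher and 6 lower (median 0.12). The median within the low class was -0.58 and within the high class -0.19. Gbp3, a guanylate-binding protein induced by interferon, read 8.14, 9.02 and 8.41 in WT and 8.00, 7.92 and 6.20 in Cmah KO (-0.57 without replicate 3). Complement genes had medians of -1.05 and -0.32. Fibroblast markers had -1.10 and -0.21, and endothelial markers -0.83 and -0.25, with and without replicate 3.

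The contractile and energy programmes of the heart muscle cell differed little once replicate 3 was left out. Of 20 sarcomere genes, 10 were higher and 10 lower without it, none without overlap, with a median of -0.001. With it 16 were lower and the median was -0.27. Myh7, the slow myosin that rises in the stressed heart, read 9.39, 8.77 and 11.82 in WT and 11.04, 10.50 and 11.91 in Cmah KO, so the groups overlapped. Of 38 genes of the respiratory chain and ATP synthase, 37 were lower with replicate 3 (median -0.31), and 28 without it (median -0.06), 6 of them without overlap (3.93% of all genes). The median without replicate 3 was 0.02 for 15 calcium handling genes, -0.0007 for 20 genes of glycolysis and glycogen, and 0.17 for 13 ion channel and conduction genes. It was 0.03 for 20 genes of the dystrophin complex, 0.06 for 11 genes that glycosylate dystroglycan and -0.08 for 14 genes of the cardiac stress and fetal programme. In that last list Timp1, an inhibitor of matrix proteases, read 8.40, 7.92 and 8.86 in WT and 7.46, 7.72 and 7.30 in Cmah KO, a difference of -0.90 ± 0.52, or -0.80 without replicate 3.

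**Figure D5:**
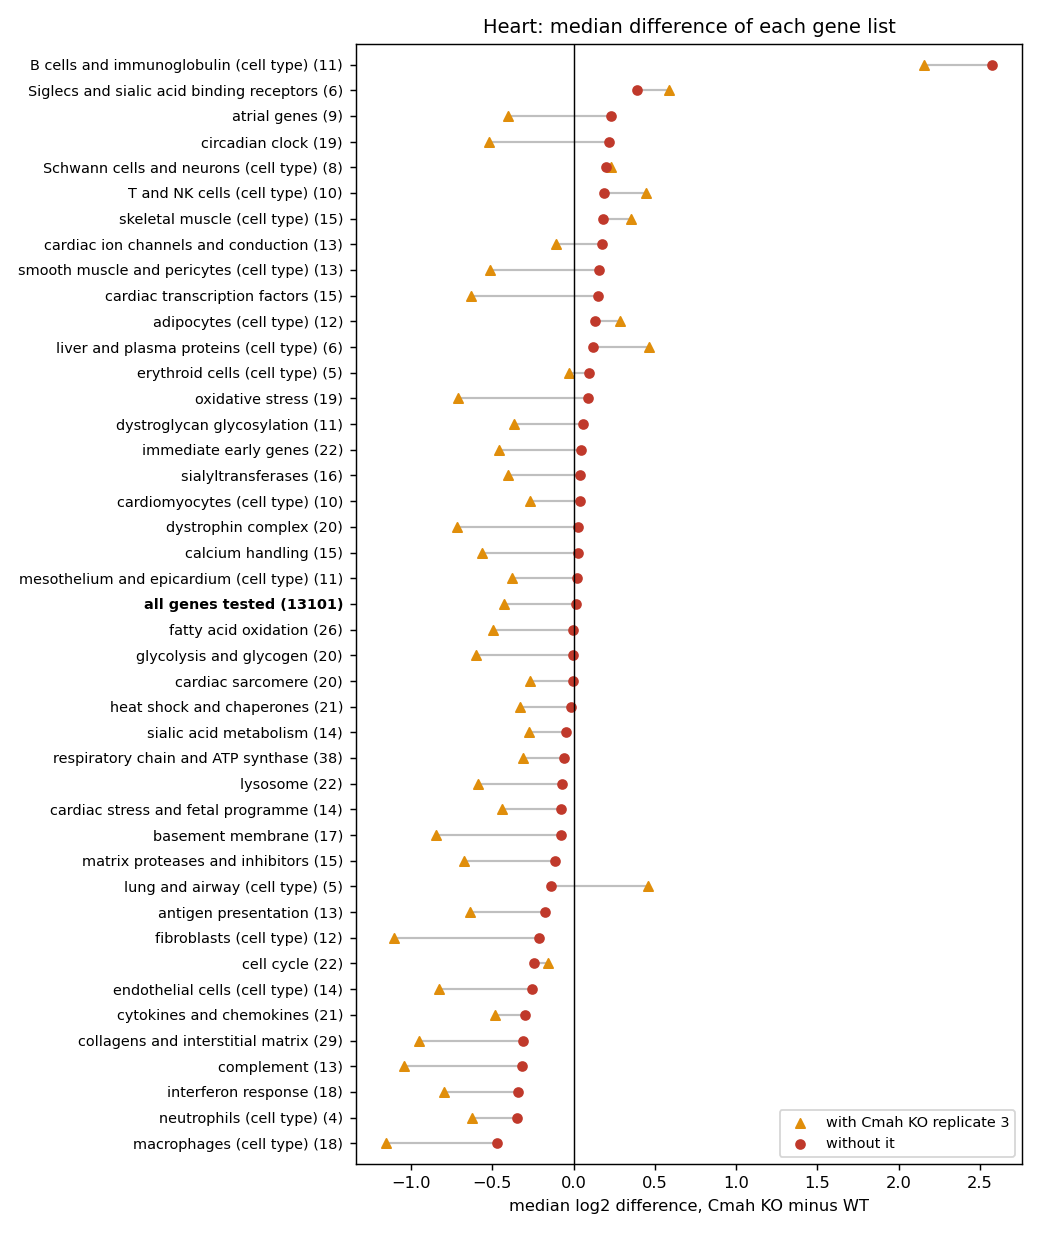
Median log2 difference, Cmah KO minus WT (horizontal axis), of the tested genes of each list, with the number tested in brackets (vertical axis); triangles are with and circles without Cmah KO replicate 3. The B cell list stands at 2.16 and 2.58, the macrophage list at -1.15 and -0.47, and all genes tested (bold) at -0.43 and 0.02.

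Markers of tissues that border the heart differed between single arrays. The median of 15 skeletal muscle markers was 10.94, 8.22 and 9.63 on the WT arrays and 9.94, 10.57 and 10.35 on the Cmah KO arrays, so WT replicate 2 was the lowest. The list's median difference was 1.71 in the low class, which holds WT replicate 2, and -0.01 in the high class. Myh2, a fast skeletal myosin, read 8.03, 4.28 and 6.07 in WT and 8.60, 9.90 and 7.37 in Cmah KO (2.50 ± 1.18, or 3.13 without replicate 3), and Myh1, another, differed by 2.16 ± 1.31. Sftpc, the surfactant protein of lung alveoli, read 9.29 on WT replicate 2 and 7.41 on Cmah KO replicate 3, against 4.02 to 4.76 on the other 4 arrays. Of 12 adipocyte markers, 6 were higher and 6 lower (median 0.29, and 0.13 without replicate 3). The part of such tissue in the differences above was not tested.

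Leaving out replicate 3 brought up a few more probe sets among those with the smallest p. Acaa1b, a peroxisomal thiolase, read 3.29, 3.39 and 3.57 in WT and 5.11 and 5.47 in Cmah KO replicates 1 and 2, against 3.51 in replicate 3. Another Snap25 probe set gave a like pattern (2.44 ± 0.78 without replicate 3, 1.59 ± 0.85 with it). It lay above the filter's cut on 0 WT, 2 mdx and 0 Cmah KO mdx arrays, so it passed only with the Cmah KO arrays counted. In the lower direction Igsf6 differed by -1.03 ± 0.36, Lpcat2, a lysophospholipid acyltransferase, by -1.01 ± 0.41, Mbnl3, a splicing factor of the muscleblind family, by -0.95 ± 0.38 and a probe set of Sltm by -1.10 ± 0.45. With replicate 3 these 4 stood at -0.50, -0.60, -0.71 and -0.75, with overlapping groups for all but Mbnl3. Mbnl3 lay above the filter's cut on 3 WT arrays and on 0 Cmah KO, 0 mdx and 0 Cmah KO mdx arrays. It passed the filter solely through the group where it is high, so it had to differ. Near Cmah, the probe sets of Zfp322a (-1.87 ± 0.91), Serpinb6a (-2.10 ± 1.12) and Acot13 (-1.21 ± 0.66) moved to -0.47, -0.28 and -0.26 without replicate 3.

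The same 12 and 12 probe sets were also read in hearts that lack dystrophin. In Cmah KO mdx minus mdx, 11 of the 12 higher and all 12 lower ones had the same sign, beside 8512 of 13101 among all genes. These counts include Cmah KO mdx replicate 2, and some shared signs rested on it. Replicates 1 and 3 read 3.30 and 4.41 for Slc27a2, against 4.38, 3.26 and 5.34 in mdx. For Dusp26 they read 4.73 and 4.17, against 4.58, 4.86 and 4.52. For Tfrc they read 6.82 and 6.32, against 6.89, 6.16 and 6.22. Ighg3 and the dimmer Iglv1 probe set passed the filter solely through Cmah KO and Cmah KO mdx arrays, which favoured a shared sign. Cldn10, Slc27a2, Dusp26, and the Ms4a1 and brighter Iglv1 probe sets lay above the cut on 0 WT arrays and 1 mdx array. H3c11 lay above it on 0 WT and 2 mdx arrays. All of these passed only with Cmah KO or Cmah KO mdx arrays counted, which also favoured the higher sign. Cltc is counted among the lower ones at a difference of -0.0003. In the gastrocnemius of the same animals the sign was shared by 2 of the 12 higher and 8 of the 12 lower ones, beside 6081 of 13101. Among the 2 is Slc27a2, at 4.68, 3.57 and 4.29 in WT and 3.53, 9.70 and 4.17 in Cmah KO gastrocnemius. On the array with 9.70, Cmah KO replicate 2, the median of the liver and plasma protein list was 12.88, against 4.17 to 7.90 on the others. The part of other tissue in these gastrocnemius values was not tested. None of the 24 passed the test of a difference between the tissues (lowest adjusted p 0.646 with limma).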

How the data were processed

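The deposited values are intensity values on a linear scale for 45101 probe sets, made by the authors with GCOS and RMA per the submitters' processing notes, which give no version. After leaving out 64 control probe sets, log2 was taken with no further scaling. Of the rest, 34945 carry a single symbol in the platform annotation, 932 carry more and 9160 carry no symbol; 34741 of the first kind matched RefSeq genes of GRCm38.p6. A probe set was tested where at least 3 of the 12 heart arrays lay above the 40th percentile of heart values.

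Group means of the 12 heart arrays were fitted with limma 3.58.1 (R 4.3.3, lmFit and eBayes, two-sided, Benjamini-Hochberg). The fit was checked on simulated data with the same spread on every array. That check does not cover a deviating array such as Cmah KO replicate 3. The labels give animals, and no pair of arrays was identical. Replicate numbers did not pair WT with Cmah KO (correlations of deviations for equal numbers -0.279, -0.418 and 0.019). For differences between tissues, all 24 arrays were fitted with animal as a random block.

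The text names Cmah, Dmd and Nnt, up to 12 probe sets with 1 symbol and the smallest p in each direction whose groups do not overlap, up to 5 more in each direction without replicate 3, up to 5 near Cmah, and up to 2 members of a list. Others are marked as chosen later. A list is read from the brightest probe set of each gene. The members, the lists and the rule were chosen with earlier results of these data known. Alternatives covered the filter, scaling, offset, variance model, array weights, arrays in the fit, the replicate block and each array left out.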

Additional observations from a re-analysis of the deposited data

How the results depend on the processing

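Array weights gave the only call under any alternative, 0 higher and 1 lower: a Ctsl probe set, at -3.38 ± 0.335 (limma, adjusted p 0.00537). In that fit the weights of WT replicates 1, 2 and 3 were 9.66, 0.54 and 1.44, so its WT mean leaned on 1 array. Cmah KO replicate 3 had a weight of 0.041 and counted for little. Every other alternative called 0 probe sets. The number at an unadjusted p below 0.05 (132 higher, 118 lower) moved by over 1.5 times in several fits. It was 331 higher without the filter and 29 with a stricter filter, which test more and fewer probe sets. It was 73 higher and 26 lower with only the 6 arrays, 440 and 1473 with all 24 arrays and animal as a random block, and 1030 and 1303 with array weights. The cause of these moves was not tested. Leaving out each array in turn gave 71 (without WT replicate 1) to 891 (without Cmah KO replicate 2) higher and 42 (without Cmah KO replicate 3) to 3856 (without Cmah KO replicate 2) lower. Without both deviating arrays and with the Actb class as a block, an alternative chosen after seeing the data, it was 631 and 535 (lowest adjusted p 0.0899 with limma). With the replicate block the count was 206 in all, and the block changed no call.

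Signs turned for 7 named probe sets when an array was left out. The values then ran from -0.77 to 0.71 for Cmah (positive without WT replicate 2 and, at 0.42, without Cmah KO replicate 3), -1.20 to 0.13 for Ebf1 (positive without Cmah KO replicate 3), -0.15 to 0.74 for Gne (negative without WT replicate 2) and -0.058 to 0.32 for Cmas (negative without WT replicate 1 and, at -0.048, without Cmah KO replicate 1). They ran from -0.25 to 1.27 for Zkscan8 (negative without Cmah KO replicate 1 and, at -0.051, replicate 2), -1.84 to 0.29 for Rsl1 (positive without Cmah KO replicate 2) and -2.04 to 0.64 for Sftpc (positive without WT replicate 2). Cmah also turned with array weights (1.10), without both deviating arrays (0.42) and with the class block (0.16), Ebf1 with quantile normalization (0.042), array weights (0.575) and without both arrays (0.13), and Gne with array weights (-0.10). The dimmer Arsk probe set turned from -0.30 to 0.43 without Cmah KO replicate 3. Probe sets near background carry little signal over it, which limits their differences.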
